A study of Mus musculus with 24 samples.

Results

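The genes described here are the 78 mouse genes for mitochondrial ribosomal proteins, 49 with the symbol Mrpl (named for the large ribosomal subunit) and 29 with the symbol Mrps (named for the small subunit), out of 21631 protein-coding genes on the 19 autosomes and the X chromosome. They were chosen by symbol alone from the RefSeq annotation of mm10 (assembly GRCm38.p6), without regard to any measured value. A library's peak was assigned to a gene if it reached, by 1 b or more, within 1000 b of either annotated end. The 6 annotated pseudogenes with a matching symbol were not members, and none held a peak in any library.

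The peaks come from CUT&Tag, in which an antibody tethers a transposase to chromatin inside permeabilised cells. Group 3 innate lymphoid cells (ILC3s) had been sorted from the small intestine of Cxxc1flox/flox mice that also carry a Cre (KO) and of Cxxc1flox/flox mice without it (WT), both stated to be 6 to 8 weeks old, although the labels also mention aged and young animals and a culture medium. Both genotypes carry the floxed Cxxc1 alleles, and in KO the deletion is limited to cells that make the Cre and their descendants. CCR6+, NKp46+ and DN subsets were each profiled with an antibody to CFP1, the protein that Cxxc1 encodes, and with one to H3K4me3, the trimethylated lysine 4 of histone H3. There were 2 libraries per subset, genotype and antibody, hence 12 libraries per antibody, 6 KO and 6 WT. The labels do not say whether these came from separate animals, so every p-value below reflects the spread among these libraries alone, and that spread may be technical.

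The mitochondrial ribosome makes the few respiratory chain proteins that the mitochondrial genome encodes. Its RNAs come from mitochondrial DNA, but its proteins are encoded in the nucleus, made in the cytosol and imported, so their genes must be transcribed together with those of many other mitochondrial proteins in nearly every cell. CFP1 binds unmethylated CpG dinucleotides through a CXXC zinc finger and belongs to the SET1 complexes that trimethylate H3K4 at active promoters. A few symbols of the family are historical: Mrps30 and Mrps18a encode proteins that structures place in the large subunit, Mrpl58 encodes a peptidyl-tRNA hydrolase built into the ribosome, and the product of Mrps36 is now known as a component of the 2-oxoglutarate dehydrogenase complex.

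The deposited lists hold peaks and no reads, so depth is unknown, and a gene without a peak had none called at that depth. CFP1 lists held 714 to 8881 peaks in KO and 4574 to 7983 in WT, and H3K4me3 lists held 11794 to 18127 in KO and 12838 to 15397 in WT. KO NKp46+ replicate 2 and KO DN replicate 2 stood apart with 4891 and 8881 CFP1 peaks, against 714 to 1312 in the other 4 KO lists. Of 11 ILC3 marker genes, 4 to 6 held H3K4me3 in KO libraries and 6 or 7 in WT libraries, and 4 of them (Il22, Rora, Il1r1 and Gata3) held none in either. Of 4 B cell markers, 0 or 1 held H3K4me3 in KO libraries and 0 in WT libraries, of 4 myeloid markers 0 or 1 in KO and 0 in WT, and of 4 T cell markers 1 to 4 in KO and 2 to 4 in WT. Of 5 epithelial markers 1 to 3 held it in KO and 1 or 2 in WT, of 4 ILC2 markers 0 to 2 in KO and 1 in WT, and of 3 stromal markers 1 or 2 in both genotypes. The part of these differences in the results below was not tested. Cxxc1 held H3K4me3 in all 6 KO and all 6 WT libraries, and peaks at its ends do not check the deletion.

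CFP1 peaks lay at fewer mitochondrial ribosomal protein genes in KO than in WT ILC3s in all 3 subsets, and in each subset both KO libraries were below both WT libraries. The number of members with CFP1 was 6 and 5 in KO CCR6+, 4 and 16 in KO NKp46+, and 9 and 27 in KO DN libraries, against 35 and 27 in WT CCR6+, 32 and 24 in WT NKp46+, and 30 and 32 in WT DN libraries. Only KO DN replicate 2 reached the WT range, which began at 24. The mean was 11.2 ± 8.89 members in KO and 30.0 ± 3.95 in WT (SD, n = 6 libraries each), a difference of -18.8 members. Without KO DN replicate 2 and KO NKp46+ replicate 2 the KO mean was 6.00 and the difference -24.0, and it was -26.0 over the libraries numbered 1 and -11.7 over those numbered 2.

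The same direction held for all genes: CFP1 lay at 9.40% of protein-coding genes in the mean KO library and at 21.6% in the mean WT library, against 14.3% and 38.5% of the members. Nearly all members carry H3K4me3, so the 9253 genes with H3K4me3 in all 12 libraries are the closer comparison. Among these, CFP1 lay at 15.5% of the 72 members and 21.4% of all genes in KO, and at 41.7% of the members and 49.5% of all genes in WT. Members with H3K4me3 were below all such genes in each of the 12 libraries (the gap was widest in WT CCR6+ replicate 2, at 37.5% of members and 52.9% of all genes). No test of the family against other genes was made.

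**Figure D1:**
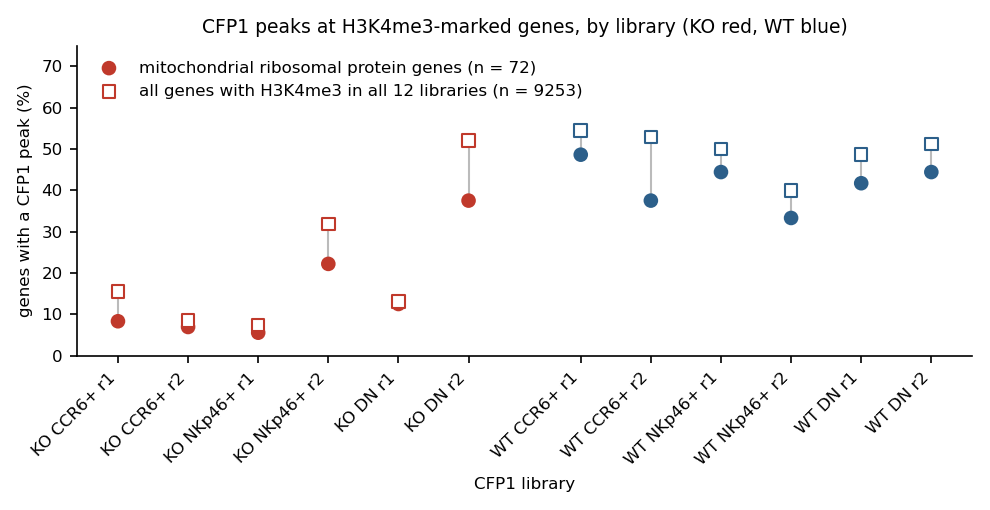
Percentage of H3K4me3-marked genes with a CFP1 peak (vertical axis) in each CFP1 library (horizontal axis, r is the replicate). Filled circles are the 72 mitochondrial ribosomal protein genes with H3K4me3 in all 12 libraries, open squares all 9253 such genes, KO in red and WT in blue. The members lie below all genes in every library, and 4 of the 6 KO libraries lie at 12.5% of members or less, against 33.3% to 48.6% in WT.

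By gene, 45 of the 78 members held CFP1 in fewer KO than WT libraries, 3 in as many (Mrpl37, Mrpl49 and Mrpl51) and 1 in more (Mrps35, in KO DN replicate 2 alone), and 29 held none in any library. The 45 are 62.5% of the 72 members with constant H3K4me3, against 66.9% of all 9253 such genes. With 6 KO and 6 WT libraries, 40 members had CFP1 in 2 to 10 libraries and were tested by a two-sided Fisher's exact test, adjusted by Benjamini-Hochberg over all 5741 such genes. No member passed an adjusted p of 0.05 (smallest 0.202), and 0% of all genes tested did. At an unadjusted p under 0.05, 4 members held CFP1 in fewer KO libraries, against 7.51% of all genes tested, and 0 in more, against 0%. The count of 4 was 10 without KO DN replicate 2 (23.4% of all genes tested), 7 without KO NKp46+ replicate 2 (16.3%) and 7 without KO DN replicate 1 (9.24%). Among peaks enriched 5-fold and above it was 2 (Mrps16 and Mrpl47, exact p = 0.0152 each), and Mrpl2, Mrps6 and Mrpl53 then missed that threshold or could not be tested. With the libraries paired by number in an exact sign-flip test it was 1, Mrps16 (0.975% of all genes). With so few pairs, only a gene with CFP1 in all 6 WT and 0 KO libraries can fall under 0.05 in that test. The lower count was thus fixed by the number of pairs and does not bear on the other members.

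The 4 members were Mrps16, Mrps6, Mrpl2 and Mrpl53. Mrps16, a small-subunit protein inherited from the bacterial ribosome, held CFP1 in 0 of 6 KO libraries and in 6 of 6 WT libraries (exact p = 0.00216, adjusted p = 0.202). It was the only member with that pattern, 1 of 40, where 0.975% of all genes tested had it. The authors' fold enrichment of its peak in the WT lists ran between 4.15 in NKp46+ replicate 2 and 8.24 in CCR6+ replicate 1, at the 22.5th to 83.6th percentile of the lists. The peaks lay over chr14:20393256-20393827, across the start of the gene (Entrez Gene 66242, chr14:20391222-20393634, minus strand). A window of Mrps16 is shared with Cfap70. H3K4me3 at Mrps16 was listed in all 12 libraries, and its width differed by 0.01 on the log2 scale (95% interval -0.13 to 0.15, limma adjusted p = 0.983).

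Mrps6, another small-subunit protein of bacterial descent, held CFP1 in 0 KO libraries and in 5 WT libraries, all but NKp46+ replicate 1. Mrpl53, a large-subunit protein specific to mitochondria, also held it in 0 KO and 5 WT libraries, all but NKp46+ replicate 2. Mrpl2, which sits close to the peptidyl transferase centre, held it in 1 KO library, DN replicate 2, and in all 6 WT libraries. Each of these 3 had an exact p of 0.0152 and an adjusted p of 0.202. Taken over all libraries, their CFP1 peaks spanned the annotated gene starts. They covered chr16:92058291-92059359 at Mrps6 (Entrez Gene 121022, plus strand), chr6:83108720-83109557 at Mrpl53 (Entrez Gene 68499, plus strand) and chr17:46645560-46646501 at Mrpl2 (Entrez Gene 27398, plus strand). In that order the median summits lay at 446, 31.0 and -270 b from the promoter start (downstream positive). Windows are shared with Slc5a3 at Mrps6, Ccdc142 at Mrpl53, and Cul7 and Klc4 at Mrpl2. At each of Mrps6, Mrpl53 and Mrpl2 the KO and WT libraries thus overlapped, though by 1 library at most.

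A further 8 members held CFP1 in 4 fewer KO than WT libraries. Mrpl1 (of the ribosomal stalk that releases transfer RNA), Mrpl30 and Mrpl47 each held it in 2 KO libraries, NKp46+ replicate 2 and DN replicate 2, and in all 6 WT libraries. Mrpl57 and Mrps28 held it in both KO DN libraries and in all 6 WT libraries. Mrpl38 and Mrps30 held it in 1 KO and 5 WT libraries, but at Mrpl38 the difference was 0 with windows of 500 b (exact p = 1.00), since its 5 WT peaks, over chr11:116130241-116131124, lay outside the annotated gene (chr11:116131817-116138868). Mrps36 held CFP1 in 0 KO and 4 WT libraries. Together 12 of the 72 members with constant H3K4me3 (16.7%) had a difference of -4 or below, and so did 16.7% of the 9253 genes.

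The KO libraries NKp46+ replicate 2 and DN replicate 2 carried much of the CFP1 left at the family. Of 29 members with CFP1 in any KO library, 16 had it only there, and 11 had it in a KO library numbered 1. The 29 are 40.3% of the members with constant H3K4me3, against 55.6% of all such genes. Over all such genes, these KO NKp46+ and DN libraries held CFP1 at 31.8% and 52.0%, against 7.45% to 15.5% in the other KO libraries. Their large part is thus not particular to the family. Without KO DN replicate 2, 2 members passed the adjusted threshold in the same exact test, Mrps16 and Mrpl2 (adjusted p = 0.0443 each), 5.26% of the 38 tested against 4.88% of all genes tested. Without both libraries 5 members passed (Mrps16, Mrpl2, Mrpl1, Mrpl30 and Mrpl47, adjusted p = 0.0344 each), 13.5% of the 37 tested against 13.9% of all genes tested. Both libraries were singled out for their many CFP1 peaks, so these calls lean on a choice made with the outcome known.

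**Figure D2:**
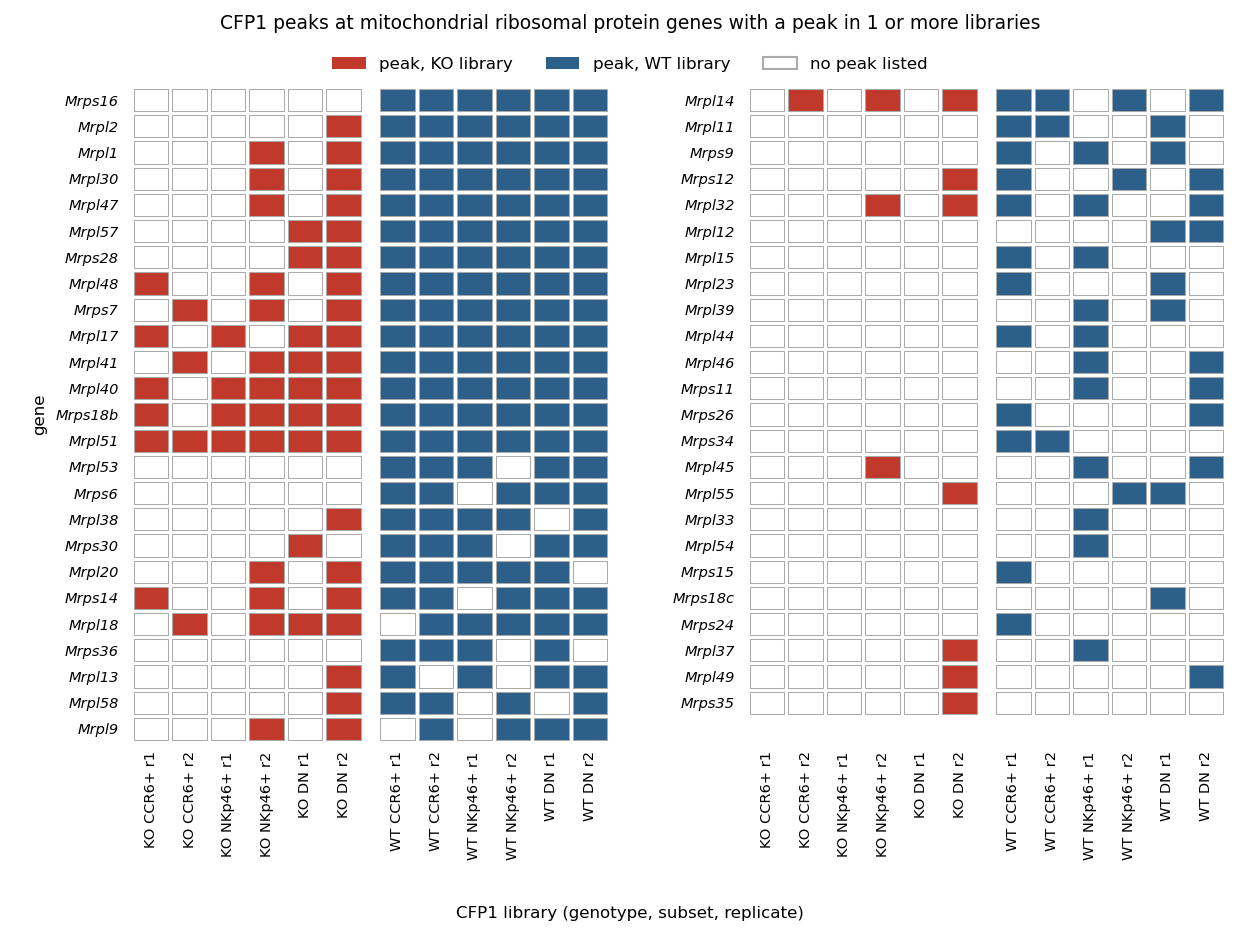
CFP1 peaks at the 49 members with a peak in 1 or more of the 12 CFP1 libraries. Each row is a gene and each column a library, with a filled box for a listed peak (KO in red at the left, WT in blue at the right), ordered by the number of WT libraries and then by fewer KO libraries. Mrps16 is filled in all 6 WT and no KO columns, Mrpl51 in all 12, and many red boxes fall in the columns of KO NKp46+ replicate 2 and KO DN replicate 2.

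Promoter sequences of 5 members are shown, because they span the range of CFP1 seen in the family. Mrps16 and Mrps6 lacked CFP1 in every KO library, Mrpl51 held it in all 12, and Mrps21 and Mrpl35 held H3K4me3 in all 12 libraries but CFP1 in none, with the most (Mrps21) and the fewest (Mrpl35, tied with Mrpl3) CpG dinucleotides among the members of that kind. Each sequence is RefSeq's (GRCm38.p6), 250 bases before and 50 bases after the listed start, printed 5′ to 3′ on the gene's strand with each CG dinucleotide in capitals. They are Mrps16 at chr14:20393441-20393740 on the minus strand, Mrps6 at chr16:92058086-92058385 on the plus strand, Mrpl51 at chr6:125191950-125192249 on the plus strand, Mrps21 at chr3:95871465-95871764 on the minus strand and Mrpl35 at chr6:71823735-71824034 on the minus strand.
Mrps16: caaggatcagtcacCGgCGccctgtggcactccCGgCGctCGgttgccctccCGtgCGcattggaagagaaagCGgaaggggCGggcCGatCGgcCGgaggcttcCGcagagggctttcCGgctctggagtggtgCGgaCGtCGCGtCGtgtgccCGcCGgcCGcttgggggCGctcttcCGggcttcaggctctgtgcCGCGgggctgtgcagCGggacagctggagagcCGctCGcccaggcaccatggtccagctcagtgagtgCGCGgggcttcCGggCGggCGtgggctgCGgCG
Mrps6: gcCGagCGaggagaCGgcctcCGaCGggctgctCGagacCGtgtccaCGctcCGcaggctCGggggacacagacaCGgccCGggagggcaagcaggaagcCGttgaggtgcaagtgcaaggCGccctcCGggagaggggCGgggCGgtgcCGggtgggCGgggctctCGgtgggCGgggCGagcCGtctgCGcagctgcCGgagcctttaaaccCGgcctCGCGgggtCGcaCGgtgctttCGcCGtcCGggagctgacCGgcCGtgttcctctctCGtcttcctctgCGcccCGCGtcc
Mrpl51: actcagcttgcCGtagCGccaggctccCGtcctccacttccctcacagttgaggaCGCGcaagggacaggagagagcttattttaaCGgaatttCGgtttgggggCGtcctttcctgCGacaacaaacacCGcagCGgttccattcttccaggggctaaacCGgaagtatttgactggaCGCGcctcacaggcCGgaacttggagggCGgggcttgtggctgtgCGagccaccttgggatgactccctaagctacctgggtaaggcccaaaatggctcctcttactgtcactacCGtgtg
Mrps21: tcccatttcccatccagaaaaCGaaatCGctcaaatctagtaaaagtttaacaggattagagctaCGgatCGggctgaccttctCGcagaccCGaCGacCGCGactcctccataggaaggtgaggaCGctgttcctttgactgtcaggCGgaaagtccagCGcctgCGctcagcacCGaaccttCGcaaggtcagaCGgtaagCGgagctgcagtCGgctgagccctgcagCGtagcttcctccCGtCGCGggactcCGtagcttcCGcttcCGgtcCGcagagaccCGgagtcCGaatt
Mrpl35: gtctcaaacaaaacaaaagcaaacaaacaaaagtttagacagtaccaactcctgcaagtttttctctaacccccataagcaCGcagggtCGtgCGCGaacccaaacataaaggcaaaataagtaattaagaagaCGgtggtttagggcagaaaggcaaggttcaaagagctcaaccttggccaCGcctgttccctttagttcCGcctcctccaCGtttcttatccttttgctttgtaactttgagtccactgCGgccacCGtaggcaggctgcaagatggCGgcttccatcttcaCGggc

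The 300 bases hold 36 CG dinucleotides at Mrps16, 39 at Mrps6, 18 at Mrpl51, 28 at Mrps21 and 12 at Mrpl35. In these bases Mrpl51, with CFP1 in every library, had fewer CG dinucleotides than Mrps21, which had no CFP1 peak. However, the median CFP1 summit at Mrpl51 lay at -240 b from the promoter start, near the edge of the printed bases. At Mrps6 it lay at 446 b, outside them. The counts thus do not cover all letters under these CFP1 peaks, and the windows of Mrpl51 are shared with Ncapd2. GC boxes (GGGCGG on either strand) are present at Mrps16, Mrps6 and Mrpl51 and absent at Mrps21 and Mrpl35, and Mrpl35 alone of the 5 holds a YY1-type motif (AAGATGGCG).

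CFP1 at Mrpl51, a large-subunit protein specific to mitochondria, was listed in all 6 KO and all 6 WT libraries, over chr6:125191390-125192484 at the gene start. Its fold enrichment stood at the 32.4th to 95.4th percentile of the KO lists and at the 84.6th to 94.4th percentile of the WT lists. Mrpl40 and Mrps18b each held CFP1 in 5 KO and 6 WT libraries, lacking it in KO CCR6+ replicate 2, and Mrpl41 in 4 KO and 6 WT libraries. These 4 and Mrps28 had the highest median percentiles in WT lists, 91.6 for Mrpl51, 91.4 for Mrpl40, 89.6 for Mrps18b, 85.4 for Mrpl41 and 99.8 for Mrps28.

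Mrps28, which encodes a small-subunit protein, had the strongest CFP1 peak of the family. The peak lay at chr3:8923271-8923965, across the higher-coordinate end of the gene (chr3:8802146-8923857), inside an H3K4me3 peak present in all 12 libraries. It was listed in KO DN replicates 1 and 2, with fold enrichments of 10.7 and 11.2, and in every WT library, with 9.51 to 17.1. These values ranked at the 98.6th percentile or above in both KO lists and at the 95.7th or above in all 6 WT lists, while none was listed in the KO CCR6+ or KO NKp46+ libraries. Ranks taken from lists of different lengths were not compared between genotypes.

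In WT, CFP1 lay in both CCR6+ libraries at 25 members, in both NKp46+ libraries at 17 and in both DN libraries at 22, and 14 members held it in all 6 WT libraries. These 14 are 19.4% of the members with constant H3K4me3, against 26.4% of all such genes. No member held it in both WT NKp46+ libraries while missing it from 1 or more libraries of each other subset, 5 did so for CCR6+ (Mrpl58, Mrps36, Mrps34, Mrpl14 and Mrpl11) and 3 for DN (Mrpl12, Mrpl13 and Mrpl9). Over all genes the same counts were 199 for NKp46+, 621 for CCR6+ and 336 for DN, in the same order as the members. Of the members with CFP1 in both WT libraries of a subset, it was in neither KO library at 16 of 25 in CCR6+, where 59.1% of all such genes had none. The same held at 5 of 17 in NKp46+, against 26.5% of all such genes, and at 4 of 22 in DN, against 10.4%. The members' shares were 64.0%, 29.4% and 18.2%, in the same order as those of all genes. The mean difference per library was -25.5 members for the CCR6+ subset, -18.0 for NKp46+ and -13.0 for DN. In that order the differences were -29, -28 and -21 between libraries numbered 1. Between those numbered 2 they were -22, -8 and -5, with the peak-rich KO NKp46+ and KO DN lists among them. The part of these lists in the order of the subsets, here and in the shares above, was not tested. With 2 KO and 2 WT libraries per subset an exact test cannot go below p = 0.333, so subsets were not tested singly.

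By subunit, the 49 Mrpl genes held CFP1 at 17.3% in the mean KO library and 41.5% in the mean WT library, and the 29 Mrps genes at 9.20% in KO and 33.3% in WT. Members with a counterpart in the bacterial ribosome (47) held CFP1 at 13.5% in KO and 37.6% in WT, and those without a listed one (31) at 15.6% in KO and 39.8% in WT. Single libraries held CFP1 at 6.12% to 42.9% of Mrpl genes and 3.45% to 20.7% of Mrps genes in KO, and at 34.7% to 49.0% and 24.1% to 48.3% in WT. These ranges overlapped in both genotypes, but they mix libraries with very different numbers of peaks. Within a library the Mrpl share was the higher in all but WT CCR6+ replicate 1, and this was not tested. A limit on all of these values is that 50 of the 78 members share a window with another coding gene and a peak there counts for both. Among these 50, CFP1 lay at 17.3% in KO and 42.0% in WT, and among the 28 that share none at 8.93% in KO and 32.1% in WT. Mrps11 and Mrpl46 are each other's neighbours, and both of their CFP1 values (0 KO and 2 WT libraries) come from the same peaks.

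A CFP1 peak did not always mark the start of the member it was counted for. Mrpl58, Mrpl38, Mrps34 and Mrps18b each had 2 separate CFP1 regions, 1 at each annotated end. At Mrpl58, CFP1 lay in 1 KO and 4 WT libraries over both ends, but in 0 KO and 1 WT library at the promoter start. Its main CFP1 region, chr11:115412569-115413779, lies near the far end of the gene. In contrast, Mrps23 held CFP1 at 0 KO and 0 WT libraries over the annotated ends, but in 1 KO and 4 WT libraries at the promoter start, and Mrpl18 in 4 KO and 5 WT libraries over the ends and in 6 and 6 at the start.

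H3K4me3 was listed at nearly every member in every library of both genotypes. It marked 72 or 73 of the 78 members in each KO library and 72 or 73 in each WT library, a mean of 72.7 ± 0.516 in KO and 72.5 ± 0.548 in WT (SD, n = 6 each). In all 12 libraries it marked 72 members, 92.3% of the family. The mean library marked 93.2% of the members in KO and 92.9% in WT, against 49.8% and 48.5% of all protein-coding genes. A single member, Mrps23, had H3K4me3 in 2 to 10 libraries and could be tested, with 4 KO and 3 WT libraries (two-sided Fisher's exact adjusted p = 1.00). Of 1877 genes tested, 0% passed the adjusted threshold, and at an unadjusted p under 0.05 0.799% held H3K4me3 in fewer and 1.07% in more KO libraries. The family's H3K4me3 peaks also ranked high: the median member stood at the 73.9th to 81.7th percentile of fold enrichment in KO lists and at the 77.8th to 81.5th in WT lists, against 60.9 to 67.4 for the median gene in KO and 62.1 to 66.0 in WT.

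Of the 6 members without H3K4me3 at their ends in all 12 libraries, 5 had it at the promoter start or elsewhere over the gene. At the promoter starts of Mrps2, Mrps23 and Mrpl24, H3K4me3 was listed in 6 KO and 6 WT libraries. For Mrpl22 it was listed at the start in 5 KO and 4 WT libraries, and for Mrpl4, which has no promoter entry, somewhere over the gene in 6 and 6. For Mrpl43 the lists used here hold no peak of either antibody at its ends, at its start or over its length, and whether they are complete at that site is not known.

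The width of the H3K4me3 peak, the only continuous value compared between lists, gave no member past the threshold. Each library was centred on its median, which need not remove every effect of the unknown depth. The test was limma's moderated test on log2 width with subset as a covariate, over the 9253 genes with H3K4me3 in all 12 libraries. Of 72 members, 0 passed an adjusted p of 0.05 in either direction (smallest 0.302), against 0.0648% of all genes narrower and 0.0108% wider in KO. At an unadjusted p under 0.05, 4 members were narrower in KO (Mrps18b, Mrpl33, Mrpl38 and Mrpl27), 5.56% against 5.20% of all genes, and 1 was wider (Mrpl45), 1.39% against 3.73%. The width used is that of the widest peak at either end. At Mrpl38 the wider region, chr11:116130024-116131547 (median 1225 b), lay outside the annotated gene. The region at its other end had a median of 698 b and was not tested by itself. Samples of the same replicate number varied together in width, and with the pair as a block 0 members and 1 gene passed, where 7 genes passed without it.

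The median difference over the members was 0.03 on the log2 scale, and 0.01 over all genes tested. The median 95% interval of a member reached 0.175 to either side, and for 70 of 72 members the whole interval lay within 0.5 of 0, which was so for 85.8% of all genes. Mrps18b and Mrpl33 were the exceptions. A p that misses the threshold does not show equal widths, but a change of 0.5 or more on the log2 scale lay outside the interval at those 70. These intervals are from the fit without the pair as a block. Each library was centred on its median, so they bear only on a change relative to the other genes.

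Mrpl33, a short large-subunit protein of bacterial descent, had H3K4me3 widths of 401, 716, 501, 780, 557 and 956 b in KO libraries and of 892, 750, 508, 1159, 1218 and 1171 b in WT libraries, in the order CCR6+, NKp46+, DN with replicates 1 and 2 of each. Both groups overlapped. The difference was -0.46 (95% interval -0.75 to -0.17, limma adjusted p = 0.302). It held CFP1 in 0 KO and 1 WT library.

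Mrps18b, a small-subunit protein whose windows are shared with Atat1 and Ppp1r10, had the widest H3K4me3 peak of the family, 2043 ± 920 b in KO and 2894 ± 802 b in WT (SD, n = 6 each). Single values fell into a wide and a narrow kind: 1727, 3223, 1220, 1635, 1270 and 3183 b in KO, and 3209, 3270, 1268, 3367, 3111 and 3139 b in WT, in the same library order. The narrow kind was listed in 4 of 6 KO libraries and in 1 of 6 WT libraries, NKp46+ replicate 1. The fitted difference was -0.47 (95% interval -0.83 to -0.11, limma adjusted p = 0.436).

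Mrpl45, which tethers the ribosome to the inner membrane in mammals, leaned the other way, with 750 ± 175 b in KO and 647 ± 147 b in WT and a difference of 0.28 (95% interval 0.09 to 0.47, limma adjusted p = 0.329). After it came Mrpl12 at 0.15, and Mrps17, Mrps30 and Mrpl10 at 0.12 each. Leaving out 1 library took Mrpl12 to 0.04 (without WT NKp46+ replicate 1), Mrps30 to 0.06 (without KO CCR6+ replicate 1), Mrpl10 to 0.06 (without KO CCR6+ replicate 2) and Mrps17 to 0.08 (without KO DN replicate 1). On the narrower side Mrpl53 stood at -0.18, Mrpl38 at -0.17 (mainly from the region outside the gene) and Mrpl27 at -0.16. None of these 8 had an adjusted p under 0.3. Whether the difference between genotypes itself differed among subsets was tested with limma's interaction terms, and 0 of 9253 genes passed (128 genes, 0 of them members, at an unadjusted p under 0.05).

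**Figure D3:**
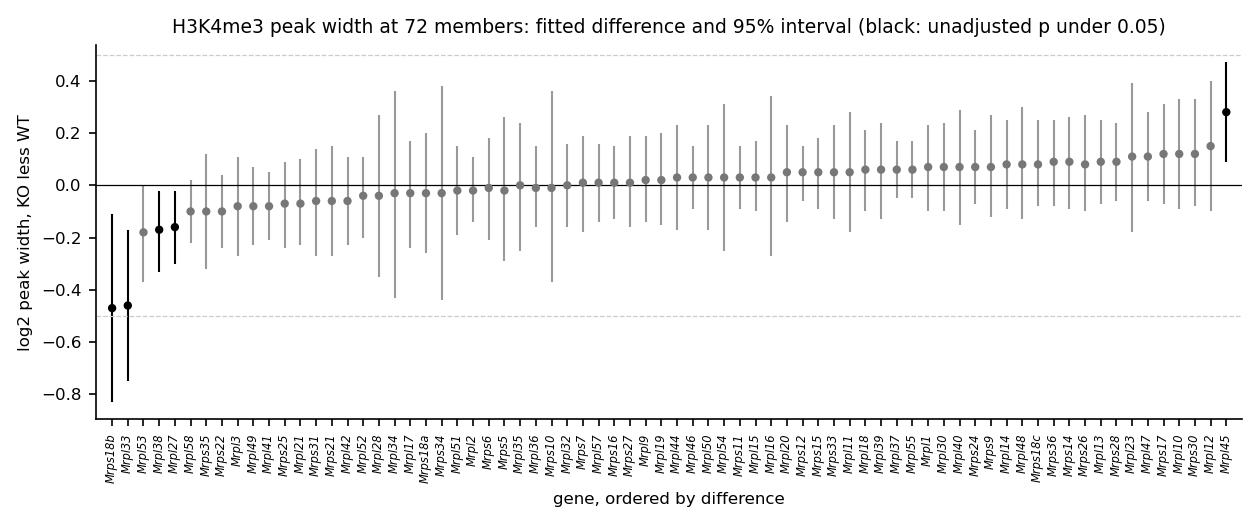
Fitted difference in log2 H3K4me3 peak width, KO less WT (vertical axis), for the 72 members with H3K4me3 in all 12 libraries, ordered from narrower to wider in KO (horizontal axis). Points are limma estimates with subset as a covariate, bars are 95% intervals, dashed lines mark 0.5 either way, and black marks an unadjusted p under 0.05. Mrps18b and Mrpl33 lie lowest, at -0.47 and -0.46, and Mrpl45 highest, at 0.28.

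Apart from these differences, the members had compact H3K4me3 peaks. Their median width was 756 to 1212 b in KO and 765 to 1226 b in WT libraries, 0.838 to 0.910 of the median of all genes in KO and 0.818 to 0.884 in WT. In WT the widest after Mrps18b were Mrps34 (2101 b on average), Mrpl40 (1927 b), Mrpl41 (1805 b) and Mrps6 (1618 b), and the narrowest were Mrpl54 (508 b), Mrpl44 (572 b), Mrpl45 (647 b), Mrps17 (658 b) and Mrps22 (674 b). All of the 5 widest held CFP1 in 2 or more WT libraries (Mrps34 in 2). Of the 5 narrowest, Mrpl44 and Mrpl45 held it in 2 WT libraries, Mrpl54 in 1, and Mrps17 and Mrps22 in none. Whether width goes with CFP1 was not tested.

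CFP1 at the family lay within H3K4me3. Each of the 69 KO and 182 WT peaks of CFP1 at members overlapped the H3K4me3 peak of the same genotype, subset and replicate number, and each of their summits fell inside it. A CFP1 peak had a median width of 533 b in KO and 542 b in WT, 41.6% and 50.4% of the H3K4me3 peak under it. Of members with CFP1 in both WT libraries of a subset, 100% had H3K4me3 in both, as did 99.9% of all such genes. The median CFP1 summit lay within 250 b of the promoter start at 13 of the 25 members with CFP1 and a promoter entry in KO, and at 33 of 42 in WT.

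The converse did not hold, since 23 of the 72 members with H3K4me3 in all 12 libraries (31.9%) had CFP1 in none, against 23.7% of all 9253 such genes. They were Mrpl3, Mrpl10, Mrpl16, Mrpl19, Mrpl21, Mrpl27, Mrpl28, Mrpl34, Mrpl35, Mrpl36, Mrpl42, Mrpl50 and Mrpl52, and Mrps5, Mrps10, Mrps17, Mrps18a, Mrps21, Mrps22, Mrps25, Mrps27, Mrps31 and Mrps33.

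**Figure D4:**
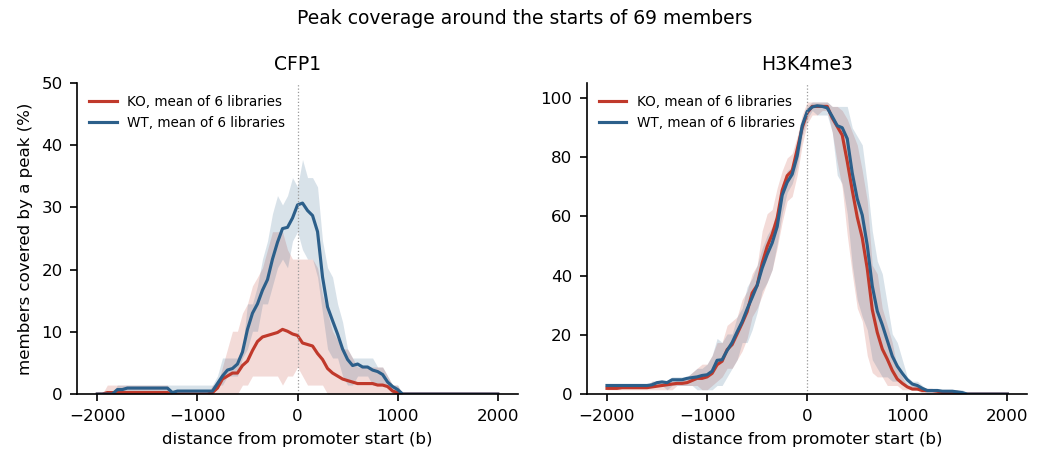
Percentage of the 69 members with a listed promoter start whose CFP1 peaks (left) or H3K4me3 peaks (right) cover each distance from that start (horizontal axis, in b, downstream to the right). Lines are means over the 6 KO libraries (red) and the 6 WT libraries (blue), and bands run from the lowest to the highest library. At the start CFP1 covered 9.42% of members in KO and 30.4% in WT, and H3K4me3 covered 94.9% and 95.4%.

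The letters of the promoters were compared with CFP1 in WT, for the 69 members with a RefSeq promoter. The classes are those of CFP1 at the annotated ends, so the 27 with none include Mrps23 and Mrpl22, which held CFP1 at the promoter start in 4 and 1 WT libraries. The number of CG dinucleotides per 300 bases was 7 to 43 with a median of 21, against 15 for all 17274 coding promoters and 23 for the 7564 of genes with constant H3K4me3. The median was 24 at members with CFP1 in 4 to 6 WT libraries (n = 23), 19 with 1 to 3 (n = 19) and 20 with none (n = 27). Spearman's rho of CG number with WT libraries holding CFP1 was 0.291 across the members and 0.251 across the genes with constant H3K4me3. These are correlations across genes that share the same 6 libraries, and genes are not independent replicates.

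GC boxes (GGGCGG, the motif of Sp1-like factors) were found in 65.2% of member promoters with CFP1 in 4 to 6 WT libraries, 68.4% with 1 to 3 and 22.2% with none. Among all genes with constant H3K4me3 the same classes had 74.0%, 69.8% and 63.0%, so the members without CFP1 at their ends stood below genes like them (6 of 27, and 5 of 22 when only members with constant H3K4me3 are kept). A GC box contains a CG dinucleotide and both motif and CG number were counted in the same window.

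ETS-type motifs (CCGGAAG) were in 36.2% of member promoters, against 22.3% of promoters with constant H3K4me3. By the same 3 classes they were in 34.8%, 21.1% and 48.1% of the members, against 23.3%, 22.8% and 20.1% of all genes with constant H3K4me3. YY1-type motifs (AAGATGGCG) were in 8 member promoters, 11.6% against 3.82%. By class they were in 0%, 15.8% and 18.5% of the members, against 3.84%, 3.91% and 3.69% of all genes with constant H3K4me3. The 8 were Mrpl35, Mrpl36, Mrpl37, Mrpl42, Mrps11, Mrps18a, Mrps24 and Mrps27, of which none held CFP1 at its ends in more than 2 WT libraries. NRF1-type motifs (GCATGCGC) were in 11.6% against 6.45%. All were searched on both strands, a match shows only that the letters are there, and the differences were not tested.

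**Figure D5:**
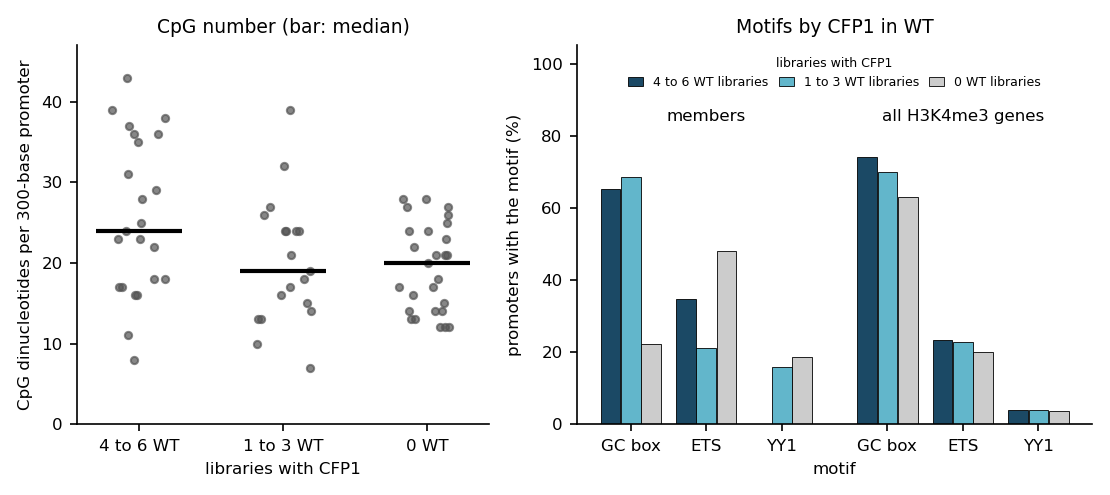
Left, CG dinucleotides in the 300-base promoters of 69 members (points, with the median as a bar) by the number of WT libraries with CFP1 at the annotated gene ends. Right, percentage of promoters with a GC box, an ETS-type or a YY1-type motif in the same classes, for the members and for all genes with H3K4me3 in all 12 libraries. Members with CFP1 at their ends in no WT library (Mrps23 and Mrpl22, with CFP1 at the promoter start, included) have a GC box in 22.2% of promoters, against 63.0% for all such genes of that class.

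Other genes of mitochondrial translation were read in the same way, from lists chosen with results of these data known, beside 66.9% of all genes with constant H3K4me3 that held CFP1 in fewer KO than WT libraries. Of the 5 ribosomal subunits without an Mrp symbol 4 held CFP1 in fewer KO than WT libraries and 1 (Ptcd3) in more, with Aurkaip1 in 2 KO and 6 WT libraries and Dap3 in 3 KO and 6 WT. Of 23 genes for assembly of the mitochondrial ribosome and modification of its RNA, 14 held CFP1 in fewer KO than WT libraries and 0 in more, among them Noa1 and Mtg1 (2 KO and 6 WT libraries each). Of 14 mitochondrial translation factors 9 did and 0 the opposite, led by Lrpprc (0 KO and 5 WT libraries, exact p = 0.0152). Of 19 mitochondrial aminoacyl-tRNA synthetases 11 did and 1 the opposite, led by Ears2 (0 KO and 5 WT libraries, exact p = 0.0152). None of these 61 genes passed the adjusted threshold for CFP1 in Fisher's exact test. Lrpprc and Ears2 were the only 2 at an unadjusted p under 0.05 for CFP1. Of all genes tested, 7.51% held it in fewer KO libraries at that threshold. The 61 also include genes outside the 2 to 10 libraries that the test needs, so they are not the like total for that share. Mtg2, Aars2 and Tars2 lacked H3K4me3 in some or all libraries, unlike the genes behind the 66.9%.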

How the data were processed

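CUT&Tag peaks of 24 libraries were used. The submitters' processing notes name the build mm10 and MACS2 2.2.7.1, Bowtie2 2.3.5.1, fastp 0.19.7, ChIPseeker 1.28.3 and Picard, without their settings. Every library has a peak list in narrowPeak format, in which the authors give each peak's fold enrichment (a ratio), −log10 p-value, −log10 q-value and an integer score that was not used here. Fold enrichment was used only within a list. Groups and replicate numbers came from the sample titles.

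Gene ends came from a RefSeq table (GRCm38.p6) and promoter starts and letters from RefSeq's promoter table, where 69 of 78 members matched. Presence was tested with a two-sided Fisher's exact test over genes with a peak in 2 to 10 of 12 libraries (SciPy 1.17.1), and peak width with limma 3.58.1 in R 4.3.3, with Benjamini-Hochberg adjustment. Calls need an adjusted p under 0.05. Both were tested on simulated data. Deviations of same-numbered KO and WT libraries from their group means correlated across genes for width (0.241 in CCR6+, 0.395 in NKp46+ and 0.411 in DN). The numbers were therefore taken to pair width samples in a fit with the pair as a block, beside the main fit with subset alone.

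Named members are those with the largest differences, levels and widths, those with CFP1 in no or all libraries, those lacking H3K4me3 in any library, and those with 2 CFP1 regions or a window shared with another member. The other members named (those of single subsets, Mrpl18, Mrpl37, Mrpl49 and the 8 with a YY1-type motif) were picked after their values were seen. The members, lists and rules were chosen with earlier results of these data known. Window size, window place, peak thresholds, left-out libraries, pairing and width definitions were varied. One marker gene is not reported here by name.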

Additional observations from a re-analysis of the deposited data

Results flagged for a closer look

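In 38 groups of 6 libraries (members per library and the H3K4me3 widths of the 17 members named for the widest or narrowest peaks or the largest width differences, by genotype), 3 had 1 library far from the other 5. Chance gives about 1 group in 20, so 3 of 38 is not far above it. The 17 members were picked by their widths in these same data, so that rate is only rough. Mrps18b had an H3K4me3 width of 1268 b in WT NKp46+ replicate 1, against a WT median of 3174 b. Mrps34 had 853 b in KO CCR6+ replicate 1, against a KO median of 2231 b, and 1047 b in WT NKp46+ replicate 1, against a WT median of 2286 b. The median H3K4me3 width over all genes was 903 b in KO CCR6+ replicate 1 and 935 b in WT NKp46+ replicate 1, the lowest of the KO and of the WT libraries. The part of that in the narrow peaks was not tested.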

How the results depend on the processing

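The number of members passing Fisher's adjusted threshold for CFP1, 0, was 5 without both KO DN replicate 2 and KO NKp46+ replicate 2, and it ranged between 0 and 2 when single libraries were left out (2 without KO DN replicate 2). It stayed at 0 with windows of 500 or 2000 b, the start alone, the whole gene, summits, stricter peaks and genotype permuted within subsets. Under the replicate block (exact sign-flip over 6 pairs) it was also 0, and 1 member, not 4, had an unadjusted p under 0.05. Only a gene with CFP1 in all 6 WT and 0 KO libraries can fall under 0.05 in the sign-flip. The sign-flip and the permutation within subsets allow few arrangements, so a count of 0 after adjustment carries little weight in either. With a fold enrichment of 5 or more, 2 members had an unadjusted p under 0.05 in Fisher's exact test, Mrps16 and Mrpl47. For presence the correlations of same-numbered libraries in CCR6+, NKp46+ and DN were 0.0538, 0.210 and 0.238 for CFP1. For H3K4me3 they were 0.0252, -0.0298 and 0.136. The CFP1 values in NKp46+ and DN were near the lowest for width (0.241 in CCR6+), so whether the numbers pair the CFP1 samples is not settled. The mean difference in CFP1-holding members was -26.0 for libraries numbered 1 and -11.7 for libraries numbered 2.

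The difference in CFP1-holding members lay between -22.0 and -17.4 when single libraries were left out, and between -26.0 and -11.7 under the other settings. The difference in H3K4me3-marked members, 0.167, was 1.00 with windows of 500 b and -0.333 with a fold enrichment of 5 or more, and the cause was not tested. No member passed for width under any setting, and all genes passing numbered 7, 1 with the replicate block, 0 without centring, 2 without the same 2 KO libraries and 0 to 10 without single libraries. Members held by CFP1 in a smaller share of KO than WT libraries numbered 40 to 47 under alternatives chosen after seeing the data. Unknown depth limits every absence.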
